A study of Mus musculus with 10 samples.

Results

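Trp53 and 9 of the genes that its product switches on, Mdm2, Cdkn1a, Ccng1, Btg2, Phlda3, Zmat3, Bax, Fas and Trp53inp1, were followed across 10 RNA sequencing libraries of NIH3T3, an immortal fibroblast line first grown from mouse embryos. A gene was taken where a row of the expression table carried its symbol alone, which gave 9 of the 10 genes, out of 14849 rows that name a gene. Bax had no such row: it is joined with its neighbour Ftl1 in 1 row, and the value of that row cannot be assigned to either gene. The control arm consisted of 1 parental culture and 1 culture stably carrying the vector. The other arms were 4 independent clones stably overexpressing FOXP2, a forkhead transcription factor, and 4 independent clones stably overexpressing FOXP2-CPED1, which the series title calls an arrangement of FOXP2. All cultures share the NIH3T3 background, and each was measured in 1 library. The controls are not described as clones, so the effect of a construct and that of growing a culture from a single clone cannot be told apart. The comparisons ask whether the p53 response genes differ from the controls in either set of clones, and whether Btg2 differs from the other targets.

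The transcription factor p53 is kept low in unstressed cells by MDM2, a ubiquitin ligase that marks it for destruction, and it rises mainly through its protein and not its transcript after DNA damage or oncogene signals. It then binds paired copies of a short DNA element and switches on genes that halt the cell cycle (Cdkn1a, Btg2, Ccng1), start cell death (Bax, Fas, Phlda3, Trp53inp1) and act back on p53 itself (Mdm2). NIH3T3 cells are known to lack the Cdkn2a locus, which encodes ARF, an inhibitor of MDM2, and to keep p53. Transcript levels of the targets are therefore a readout of p53 activity, but several of them, Btg2 among them, also answer to growth factor signals.

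Summed RPKM (reads relative to transcript length and to library size) ranged from 794682 to 944602 per library, and relative depth from 0.911 to 1.31 of the parental library. The absolute depth is unknown, so no counting interval is given. Mitochondrially encoded genes were listed at 0 in 3 libraries, FOXP2 clones 2 and 4 and FOXP2-CPED1 clone 3. The row of the cells' own Foxp2 stood at 0.0798 and 0.0785 RPKM in parent and vector, at 0.145 to 1.02 RPKM where FOXP2 was overexpressed and at 0.0674 to 0.330 RPKM where FOXP2-CPED1 was. The species of the introduced sequence is not given in the labels, so this row does not check them. Of 10 fibroblast marker genes 8 had a row, and all 8 reached 1 RPKM in at least 1 library. Their summed level was 9009 to 9116 RPKM in the controls, 5945 to 8326 in the FOXP2 clones and 6378 to 8967 in the FOXP2-CPED1 clones. Blood and neuronal markers had no row, and epithelial markers summed to at most 5.19 RPKM.

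The promoters of 3 arrest genes are shown because they differ in the elements they hold close to the start. The sequences are RefSeq promoters on GRCm38.p6, a later build than the mm9 genome of the expression table, and each line gives the 250 bases before the start, 5′ to 3′ on the gene's strand. Capitals mark matches to the searched elements. Btg2 lies on the minus strand (chr1:134079156-134079405), Cdkn1a on the plus strand (chr17:29090729-29090978, the upstream one of its 2 annotated starts) and Ccng1 on the minus strand (chr11:40755287-40755536).
Btg2: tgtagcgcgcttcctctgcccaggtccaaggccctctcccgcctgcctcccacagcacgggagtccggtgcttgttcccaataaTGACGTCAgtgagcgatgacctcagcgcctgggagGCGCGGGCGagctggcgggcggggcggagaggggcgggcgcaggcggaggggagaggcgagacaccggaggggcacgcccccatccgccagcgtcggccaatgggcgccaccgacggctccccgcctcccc
Cdkn1a: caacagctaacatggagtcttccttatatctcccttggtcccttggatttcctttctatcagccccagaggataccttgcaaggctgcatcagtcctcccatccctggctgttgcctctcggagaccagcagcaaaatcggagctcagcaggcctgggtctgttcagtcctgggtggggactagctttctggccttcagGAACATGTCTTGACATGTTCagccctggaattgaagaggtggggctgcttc
Ccng1: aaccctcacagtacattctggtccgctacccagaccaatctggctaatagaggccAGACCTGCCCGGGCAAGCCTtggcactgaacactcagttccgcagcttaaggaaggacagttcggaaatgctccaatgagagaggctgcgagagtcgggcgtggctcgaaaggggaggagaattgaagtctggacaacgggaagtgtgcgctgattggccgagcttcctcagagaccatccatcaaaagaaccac
A total of 4 elements were searched on both strands in windows of 250 bases before to 50 bases after the start, for the 8 of 10 listed genes with a promoter in the RefSeq table. They were the p53 consensus (both decamers, a spacer of at most 1 base, an intact C and G core and at most 3 mismatches over 20 positions), TGACGTCA (the cAMP response element), GCGNGGGCG (the element of EGR factors) and TGTTTAC (a forkhead element). None of the matches overlapped another. The p53 consensus was matched in the Cdkn1a window at positions -51 to -32 from the start (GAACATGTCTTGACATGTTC, 1 mismatch) and in the Ccng1 window at -195 to -176 (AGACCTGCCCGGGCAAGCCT, 1 mismatch). The window of the other, downstream start of Cdkn1a held no match to any of the 4 elements. Bax and Trp53 held weaker matches, with 2 and 3 mismatches. The Btg2 window held no p53 match under these limits, but TGACGTCA at -166 to -159 and GCGCGGGCG at -131 to -123. The forkhead element was matched only in Mdm2, as GTAAACA at -153 to -147. Among the 27025 genes of the promoter table, 3.27% held a p53 match, 2.03% TGACGTCA, 6.27% GCGNGGGCG and 4.05% TGTTTAC. A match is a run of letters and not a measured binding site, and a missing match speaks only of this window.

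Trp53 itself was expressed at 69.7 RPKM in the parent and 68.0 in the vector culture. The FOXP2 clones, from 1 to 4, held 66.7, 109.5, 61.5 and 64.3 RPKM, and the FOXP2-CPED1 clones, in the same order, 77.5, 68.1, 64.0 and 90.5. FOXP2 clone 2 and FOXP2-CPED1 clone 4 were the highest libraries, and the other clones lay on both sides of the controls. The log2 difference from control was 0.09 ± 0.23 (standard error) in the FOXP2 clones (limma, adjusted p = 0.951) and 0.11 ± 0.23 in the FOXP2-CPED1 clones (limma, adjusted p = 0.956). The annotation names 1 pseudogene of Trp53, with which its reads may be shared. Protein level and activity of p53 were not measured.

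**Figure D1:**
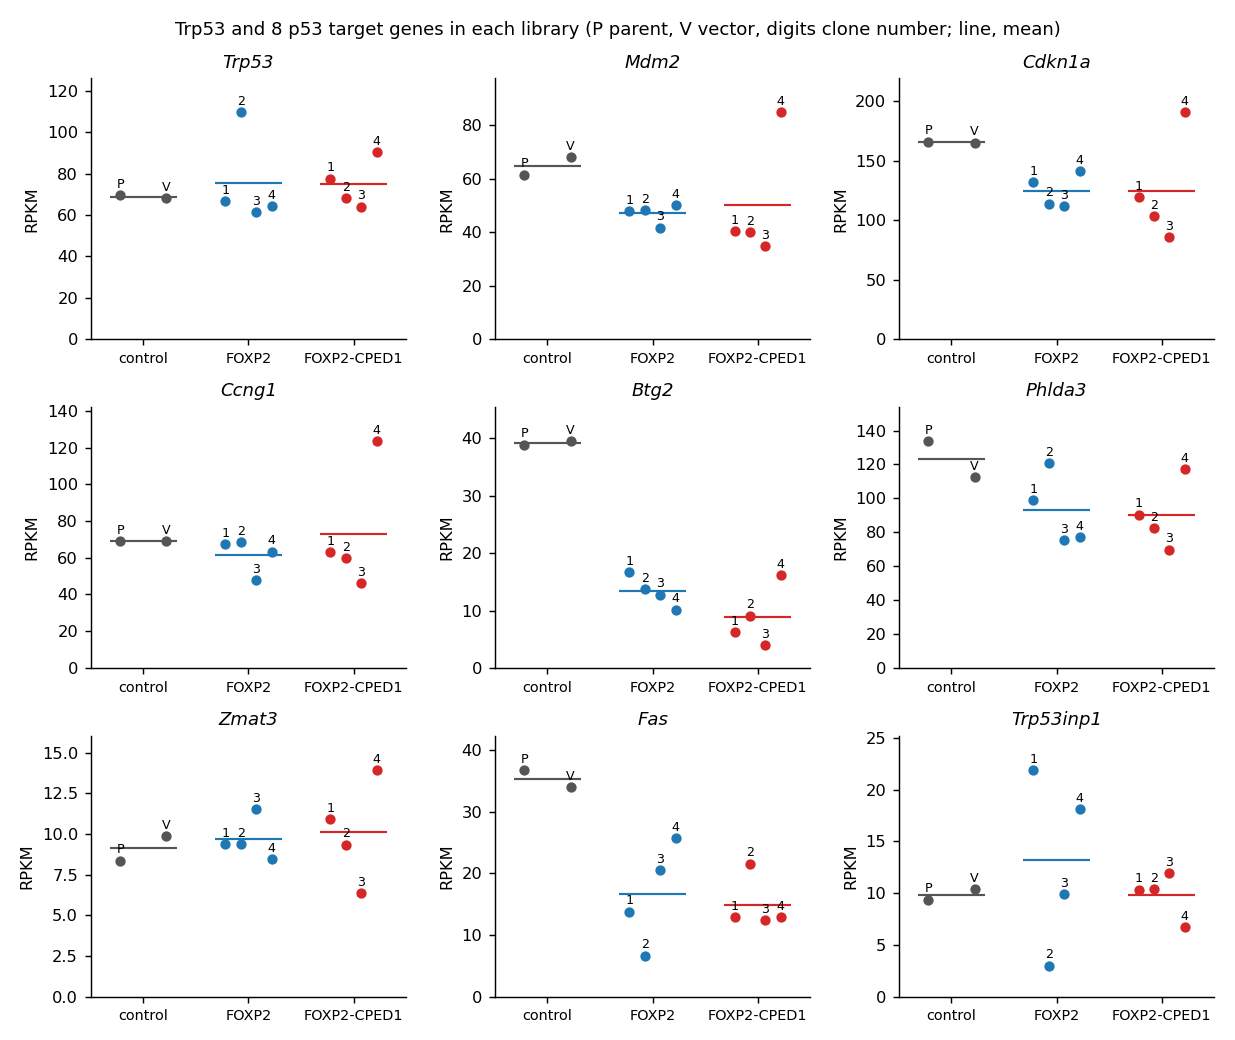
RPKM (vertical axes, from 0) of Trp53 and 8 target genes in each library; points are libraries (P parent, V vector, digits the clone number) and lines are arm means. Btg2 and Fas lie below both controls in all 8 clones, while FOXP2-CPED1 clone 4 is the highest clone of its construct for 7 of the 9 genes.

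Mdm2, the ubiquitin ligase that is both target and inhibitor of p53, stood at 61.5 RPKM in the parent and 68.2 in the vector culture. The FOXP2 clones held 47.9, 48.3, 41.7 and 50.02 RPKM and the FOXP2-CPED1 clones 40.5, 40.05, 34.8 and 84.8. All 4 FOXP2 clones and 3 of the 4 FOXP2-CPED1 clones were below both controls, and FOXP2-CPED1 clone 4 was above both. The mean was 64.8 ± 4.74 RPKM (SD, n = 2) in the controls, 47.0 ± 3.66 (n = 4) with FOXP2 and 50.02 ± 23.3 (n = 4) with FOXP2-CPED1. Neither log2 difference passed the test, at -0.46 ± 0.30 for FOXP2 (limma, adjusted p = 0.745) and -0.46 ± 0.30 for FOXP2-CPED1 (limma, adjusted p = 0.823).

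Btg2, an antiproliferative gene of the BTG and TOB family whose product recruits the CCR4-NOT deadenylase to messenger RNAs, had the largest difference from control of the 9 genes. Its level was 38.9 RPKM in the parent and 39.5 in the vector culture. It was 16.7, 13.8, 12.8 and 10.2 RPKM in FOXP2 clones 1 to 4, and 6.18, 9.13, 3.94 and 16.2 in FOXP2-CPED1 clones 1 to 4. All 8 clones lay below both controls, and the 2 sets of clones overlapped, through FOXP2-CPED1 clone 4. The mean was 39.2 ± 0.397 RPKM (SD, n = 2) in the controls, 13.4 ± 2.71 (n = 4), or 34.1% of control, with FOXP2 and 8.86 ± 5.32 (n = 4), or 22.6% of control, with FOXP2-CPED1. In a bulk library, less Btg2 RNA per cell and fewer cells that express it cannot be told apart.

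On the log2(RPKM + 1) scale the Btg2 difference from control was -1.51 ± 0.40 with FOXP2 (95% interval -2.40 to -0.61, limma adjusted p = 0.227). With FOXP2-CPED1 it was -2.18 ± 0.40 (95% interval -3.07 to -1.29, limma adjusted p = 0.0670). Both comparisons share the same 2 control libraries. Neither passed the threshold of 0.05 after Benjamini-Hochberg adjustment over 12842 tested rows. Over all 8 clones the mean was 11.1 ± 4.59 RPKM, the log2 difference -1.84 ± 0.37 and the limma adjusted p 0.0713. A log2 difference as low as that of Btg2 or lower was seen in 0.833% of tested rows for FOXP2, 0.327% for FOXP2-CPED1 and 0.545% for all clones. The outcome of the test depended on which libraries were used and on their weights. Without FOXP2-CPED1 clone 4, the clone of its construct with the highest Btg2, the gene passed the test. It stood at -2.50 (limma, adjusted p = 0.00991) for FOXP2-CPED1 and -2.003 (adjusted p = 0.0127) for all clones. In that setting FOXP2 stood at a limma adjusted p of 0.0604. Without the 3 libraries with mitochondrial genes at 0 the limma adjusted p was 0.353 for FOXP2 and 0.168 for FOXP2-CPED1, at log2 differences of -1.36 and -1.90. With library quality weights, which give deviant libraries less weight, it was 0.00773 for FOXP2 and 0.000657 for FOXP2-CPED1.

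Between the constructs, Btg2 was lower with FOXP2-CPED1 by a log2 difference of -0.68 ± 0.33 (95% interval -1.40 to 0.05, limma adjusted p = 0.9998). This difference was not past the threshold. Of the tested rows 0.732% had one as low or lower.

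Cdkn1a, which encodes the cyclin-dependent kinase inhibitor p21, was the most abundant of the 9 genes in the controls, at 166.1 RPKM in the parent and 165.1 in the vector culture. The FOXP2 clones held 131.8, 113.9, 111.6 and 141.1 RPKM and the FOXP2-CPED1 clones 119.3, 103.5, 86.0 and 190.6. All FOXP2 clones and FOXP2-CPED1 clones 1 to 3 were below both controls, and clone 4 was above them, as for Mdm2. The log2 difference from control was -0.41 ± 0.26 with FOXP2 (limma, adjusted p = 0.741) and -0.47 ± 0.26 with FOXP2-CPED1 (adjusted p = 0.767).

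Ccng1, which encodes cyclin G1, a partner of the phosphatase PP2A and of MDM2, stood at 68.9 and 69.1 RPKM in parent and vector. Its values were 67.2, 68.4, 47.7 and 63.4 RPKM with FOXP2 and 62.9, 59.9, 46.2 and 123.4 with FOXP2-CPED1. The FOXP2 clones were all below both controls, clones 1 and 2 by little, and FOXP2-CPED1 clone 4 was the highest library. The log2 differences were -0.17 ± 0.32 and -0.02 ± 0.32 (limma, adjusted p = 0.927 and 0.997).

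Fas, the death receptor of the extrinsic apoptosis pathway, was the other gene below both controls in all 8 clones. It stood at 36.7 RPKM in the parent and 34.0 in the vector culture, at 13.8, 6.67, 20.6 and 25.7 in the FOXP2 clones and at 12.9, 21.6, 12.4 and 12.9 in the FOXP2-CPED1 clones. The lowest library was FOXP2 clone 2, and 3 of the 4 FOXP2-CPED1 clones lay within 12.4 to 12.9 RPKM. The mean was 35.4 ± 1.92 RPKM (SD, n = 2) in the controls, 16.7 ± 8.27 (n = 4) with FOXP2 and 14.95 ± 4.44 (n = 4) with FOXP2-CPED1. The log2 difference was -1.18 ± 0.43 with FOXP2 (limma adjusted p = 0.421) and -1.23 ± 0.43 with FOXP2-CPED1 (limma adjusted p = 0.492), so neither passed. Fas did not order the clones as Btg2 did: FOXP2-CPED1 clone 4, the highest of its construct for Btg2, stood at 12.9 RPKM for Fas, close to clones 1 and 3. The constructs differed by -0.04 ± 0.35 (95% interval -0.81 to 0.73).

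Phlda3, whose product competes with the kinase AKT for the cell membrane, stood at 133.7 and 112.4 RPKM in parent and vector, at 98.8, 120.6, 75.2 and 77.1 with FOXP2 and at 90.5, 82.5, 69.8 and 117.2 with FOXP2-CPED1. FOXP2 clone 2 and FOXP2-CPED1 clone 4 lay between the controls, and the other 6 clones were below them. The log2 differences were -0.42 ± 0.24 and -0.47 ± 0.24 (limma, adjusted p = 0.704 and 0.733).

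Trp53inp1, a nuclear protein that promotes p53 phosphorylation and autophagy, varied most among the FOXP2 clones, at 21.9, 3.01, 9.92 and 18.1 RPKM. The controls held 9.38 and 10.4 RPKM and the FOXP2-CPED1 clones 10.4, 10.4, 12.0 and 6.74. Clones 1 and 4 of FOXP2 were above the controls and clone 2 was below, so that the arms overlapped. The log2 differences were 0.11 ± 0.57 for FOXP2 and -0.03 ± 0.57 for FOXP2-CPED1 (limma, adjusted p = 0.978 and 0.997). Zmat3, a zinc finger protein that binds RNA, was the least abundant target in the controls, at 8.36 and 9.88 RPKM. It ranged from 8.47 to 11.5 RPKM with FOXP2 and from 6.35 to 13.9 with FOXP2-CPED1, with log2 differences of 0.08 ± 0.25 and 0.10 ± 0.25 (limma, adjusted p = 0.966 and 0.967). The row that joins Bax, the pore-forming BCL2 family member, with Ftl1, a ferritin subunit, stood at 9015 and 7761 RPKM in the controls, 3829 to 6311 with FOXP2 and 5550 to 7522 with FOXP2-CPED1, and no value for Bax can be read from it.

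**Figure D2:**
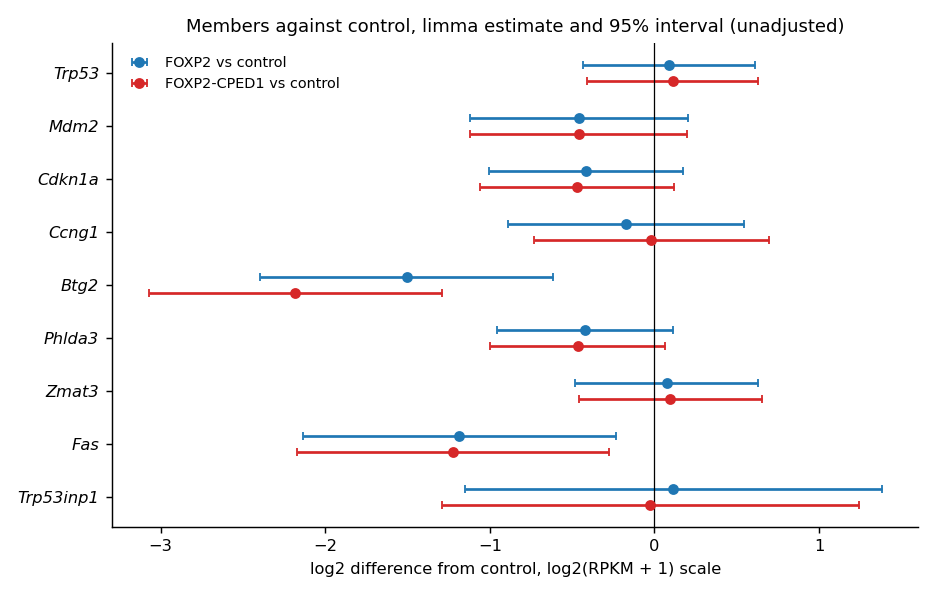
Log2 difference from control on the log2(RPKM + 1) scale (horizontal axis) for each of the 9 genes; points are limma estimates and bars their 95% intervals, unadjusted. The intervals of Btg2 and Fas exclude 0 for both constructs, and those of the other 7 genes include it.

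As a group, 0 of the 9 genes passed the limma test for FOXP2 against control, where 0.436% of tested rows did (51 lower and 5 higher). For FOXP2-CPED1 against control 0 of 9 passed, where 0.35% of rows did (42 lower and 3 higher), for all clones against control 0 of 9, where 0.537% did, and between the constructs 0 of 9, where 0.0% did. At an unadjusted limma p under 0.05, Btg2 and Fas passed in each comparison with control, against 8.52% of rows for FOXP2, 7.28% for FOXP2-CPED1 and 9.1% for all clones. Between the constructs 0 of 9 passed at that level, against 2.16% of rows. The median log2 difference of the 9 genes was -0.41 for FOXP2 and -0.46 for FOXP2-CPED1, beside 0.02 and 0.00 over all tested rows. With library quality weights 3 of the 9 passed for FOXP2 (Btg2, Fas and, higher than control, Trp53inp1) and 5 for FOXP2-CPED1 (Mdm2, Cdkn1a, Btg2, Phlda3 and Fas), a setting under which 2095 and 929 rows were called in place of 56 and 45.

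Counting libraries without a test, 5 of the 9 genes had all FOXP2 clones below both controls (Mdm2, Cdkn1a, Ccng1, Btg2 and Fas), where 10.4% of tested rows did. In the FOXP2-CPED1 clones it was 2 of 9 (Btg2 and Fas), where 13.3% of rows did. Leaving out FOXP2-CPED1 clone 4 raised that count to 6 of 9 (with Mdm2, Cdkn1a, Ccng1 and Phlda3), beside 20.4% of rows. All 8 clones were below both controls for 2 of 9 genes, beside 6.38% of rows, and for 5 of 9, beside 7.43%, without that clone. FOXP2-CPED1 clone 4 was the highest of its construct for 7 of the 9 genes. Leaving it out therefore favours genes below control, and the counts without it are no support for a lower group. None of the 9 genes had all clones of a construct above both controls, where 9.13% of rows did for FOXP2 and 12.2% for FOXP2-CPED1. None separated the 2 constructs, where 1.38% of rows did in either direction.

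The difference of Btg2 relative to the other targets was then described in each library, with no test. Each target's log2(RPKM + 1) was set against its own control mean, and the median over the 7 targets other than Btg2 was taken. That median lay at -0.31, -0.42, -0.57 and -0.23 in the FOXP2 clones and at -0.43, -0.57, -0.80 and 0.20 in the FOXP2-CPED1 clones. Btg2 itself stood at -1.18, -1.45, -1.54 and -1.85, and at -2.48, -1.99, -3.03 and -1.23. Btg2 was thus further below its control level than the median target in all 8 clones, with gaps of -1.62 to -0.87 for FOXP2 and of -2.22 to -1.42 for FOXP2-CPED1. The mean gap was -1.13 for FOXP2 and -1.78 for FOXP2-CPED1, and the constructs differed by -0.66. Taking the median over the levels of the targets instead, which is the level of Mdm2 in all 10 libraries, gave -1.05, -1.72 and -0.67.

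Gene by gene, the ratio of Btg2 to a target was lower in every FOXP2 clone than in both controls for 5 of the 7 targets, all but Fas and Trp53inp1. In the FOXP2-CPED1 clones this held for 6 of 7, all but Fas. The mean log2 difference of the ratio ran from -0.32 for Fas to -1.62 for Trp53inp1 with FOXP2, and from -0.96 for Fas to -2.28 for Zmat3 with FOXP2-CPED1. Over all other tested rows the ratio of Btg2 to the gene was lower without overlap for 94.4% of genes with FOXP2 and 96.2% with FOXP2-CPED1. The shares of the targets were thus below those over all rows, so these counts do not set Btg2 apart from the targets more than from genes in general. Between the constructs the ratio separated for 1 of the 7 targets, Ccng1, beside 2.03% of rows.

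**Figure D3:**
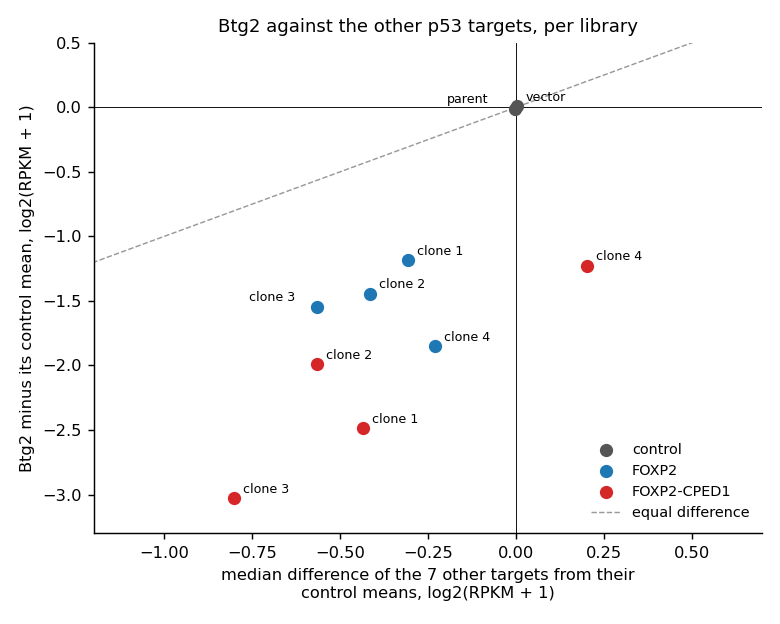
Btg2 minus its control mean (vertical axis) against the median difference of the 7 other targets from their control means (horizontal axis), both in log2(RPKM + 1), with 1 point per library; the dashed line marks equal differences. All 8 clones lie below the line, and FOXP2-CPED1 clone 4 alone lies to the right of 0, at 0.20.

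Much of the spread of the targets within a construct followed single clones. FOXP2-CPED1 clone 4 was the highest of its 4 clones for 7 of the 9 genes (Trp53, Mdm2, Cdkn1a, Ccng1, Btg2, Phlda3 and Zmat3), where it was the highest for 35.6% of tested rows. FOXP2-CPED1 clone 3 was the lowest for 8 of the 9, all but Trp53inp1, where it was the lowest for 22.4% of rows. FOXP2 clone 3 was the lowest of its construct for Trp53, Mdm2, Cdkn1a, Ccng1 and Phlda3, and lowest for 30.8% of rows. Proliferation genes, which p53 lowers through the DREAM repressor complex, were high in FOXP2-CPED1 clone 4 too: their summed level was 1691 RPKM in FOXP2-CPED1 clone 4 and 1844 in FOXP2 clone 2, against 1019 and 998 in the controls and 671 to 1057 in the other 6 clones. FOXP2-CPED1 clone 4 was the highest of its construct in 23 of 23 of these genes and FOXP2 clone 2 in 21 of 23, where over all tested rows they were the highest for 35.6% and 36.6%. FOXP2 clone 3 was the lowest of its construct in 20 of the 23, and FOXP2-CPED1 clone 3 in 18. Over all tested rows these 2 clones were the lowest for 30.8% and 22.4%. FOXP2-CPED1 clone 4 thus held the highest levels of both Cdkn1a and the proliferation genes in its construct, and FOXP2 clone 2 the highest Trp53 but not the highest Cdkn1a. Against control 0 of 23 proliferation genes passed the limma test for either construct, with medians of 0.01 and 0.11 (Top2a, a DNA topoisomerase, 76.5 ± 0.343 RPKM in the controls, 99.99 ± 27.9 with FOXP2 and 93.7 ± 18.2 with FOXP2-CPED1). The part of proliferation in the differences of the targets was not tested.

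**Figure D4:**
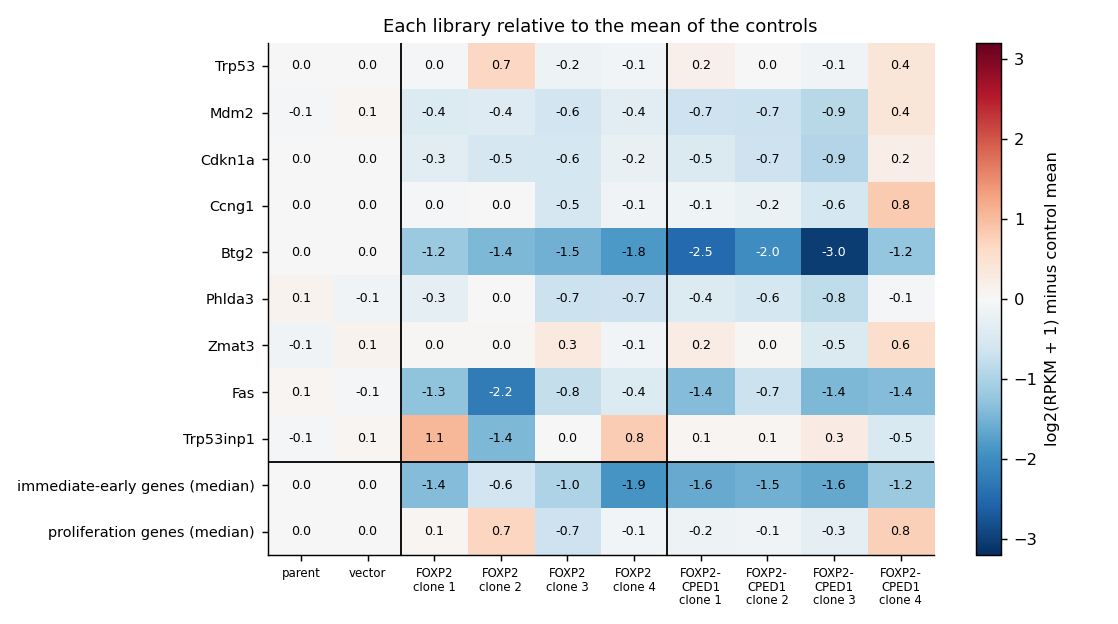
Log2(RPKM + 1) of each of the 9 genes (rows) in each library (columns) minus the mean of the controls, with the number printed in the cell, and below them the median level of the 25 immediate-early and 23 proliferation genes treated the same way. Btg2 is negative in all 8 clones, and FOXP2-CPED1 clone 4 is positive for Trp53, Mdm2, Cdkn1a, Ccng1 and Zmat3 as well as for the proliferation genes.

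Among further genes of the pathway, chosen by name, 45 other p53 targets were listed and 39 could be tested. None of the 39 passed the limma test in any comparison, their median log2 difference was -0.16 with FOXP2 and -0.14 with FOXP2-CPED1, and 26 and 29 of them were negative, beside 47.6% and 49.7% of all tested rows. Clones lay below both controls without overlap for 8 and 9 of the 39, beside 10.4% and 13.3% of all tested rows. The smallest p in a comparison with control belonged to Plk3, a stress-responsive kinase, with FOXP2-CPED1. Its level was 15.8 ± 1.40 RPKM in the controls, 5.24 ± 3.25 with FOXP2 and 3.08 ± 1.148 with FOXP2-CPED1 (limma, adjusted p = 0.166 and 0.0631). The lowest log2 differences of the 39 were those of Plk2 (-1.64 and -2.09) and Plk3 (-1.54 and -2.08). Those of Btg2, at -1.51 and -2.18, were of similar size. Sertad1, a regulator of cyclin D complexes, had the smallest p with FOXP2, at 43.4 ± 2.27, 21.2 ± 7.16 and 25.9 ± 1.85 RPKM (limma, adjusted p = 0.118 and 0.422). Of 25 regulators and relatives of p53, 21 were tested and none passed, with medians of 0.09 and 0.05. Mdm4, the partner of MDM2, stood at 21.6 ± 0.530, 27.1 ± 9.52 and 23.7 ± 2.97 RPKM, and Ppm1d, the phosphatase that turns p53 signalling off, at 6.10 ± 1.00, 9.16 ± 1.34 and 8.11 ± 1.24. Kat5, an acetyltransferase of p53, stood at 21.4 ± 2.20, 19.5 ± 3.83 and 15.9 ± 2.04 RPKM. Trp63, a p53 relative, was under 1 RPKM on average in each arm and was not tested. No row carried the symbol Trp73 or Cdkn2a alone, so neither gene could be analysed.

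The relatives of Btg2 overlapped the controls in both sets of clones. Btg1 stood at 55.1 ± 1.07 RPKM in the controls, 56.6 ± 22.2 with FOXP2 and 53.9 ± 18.5 with FOXP2-CPED1. Btg3 stood at 11.4 ± 0.547, 14.8 ± 5.71 and 13.9 ± 3.13 RPKM, Tob1 at 40.5 ± 1.93, 44.9 ± 11.3 and 42.4 ± 3.94, and Tob2 at 18.8 ± 1.06, 16.9 ± 2.13 and 21.2 ± 2.08. None of these 4 passed the limma test, and their median log2 difference was 0.04 and 0.11. Of the CCR4-NOT complex, the deadenylase that BTG proteins engage, 0 of 11 tested subunits passed, with medians of 0.09 and 0.01. The catalytic subunits Cnot7 and Cnot6 stood at 22.3 ± 0.336 and 18.9 ± 1.35 RPKM in the controls, 27.3 ± 1.50 and 24.9 ± 4.50 with FOXP2, and 27.3 ± 1.36 and 24.0 ± 2.76 with FOXP2-CPED1. Among the other cyclin-dependent kinase inhibitors 0 of 4 passed (Cdkn2d at 23.1 ± 2.61, 19.6 ± 4.00 and 20.04 ± 1.91 RPKM, Cdkn3 at 13.2 ± 2.21, 13.3 ± 4.35 and 14.1 ± 2.05). In the BCL2 family, the apoptosis regulators to which Bax belongs, 0 of 9 passed, with medians of -0.27 and -0.36 and with 4 and 6 genes below both controls without overlap, beside the same 10.4% and 13.3% of rows. Bok, a BAX relative, stood at 41.2 ± 4.64, 23.7 ± 8.77 and 24.6 ± 3.08 RPKM, and Mcl1, a survival factor, at 107.0 ± 7.47, 88.3 ± 4.73 and 78.7 ± 14.5.

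Immediate-early genes, which growth factor signals switch on within minutes and among which Btg2 is also known, were the list with calls. Of 25 tested, 6 fell with FOXP2 and 8 with FOXP2-CPED1 (limma, adjusted p under 0.05), and none rose, beside 0.436% and 0.35% of all tested rows called in either direction. Their median log2 difference was -0.97 and -1.25, and clones lay below both controls without overlap for 16 and 23 of the 25, beside 10.4% and 13.3% of rows. This list, like the others, was chosen with earlier results of these data known, so its contrast with them is a description only. Srf, the serum response factor, fell from 53.4 ± 4.32 RPKM to 13.0 ± 2.83 with FOXP2 (limma, adjusted p = 0.00289) and 12.3 ± 2.05 with FOXP2-CPED1 (adjusted p = 0.00594). Egr2, a zinc finger transcription factor, fell from 47.4 ± 2.98 RPKM to 6.86 ± 3.18 (adjusted p = 0.0250) and 3.73 ± 1.66 (adjusted p = 0.00828). Npas4 and Arc fell from 10.7 ± 0.448 and 8.92 ± 0.576 RPKM to at most 1.08 RPKM on average in either set of clones (limma, adjusted p = 0.00262 with FOXP2 and 0.00594 with FOXP2-CPED1 for both genes). Btg2, at log2 differences of -1.51 and -2.18, lay below the median of this list and below the median of the p53 targets.

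**Figure D5:**
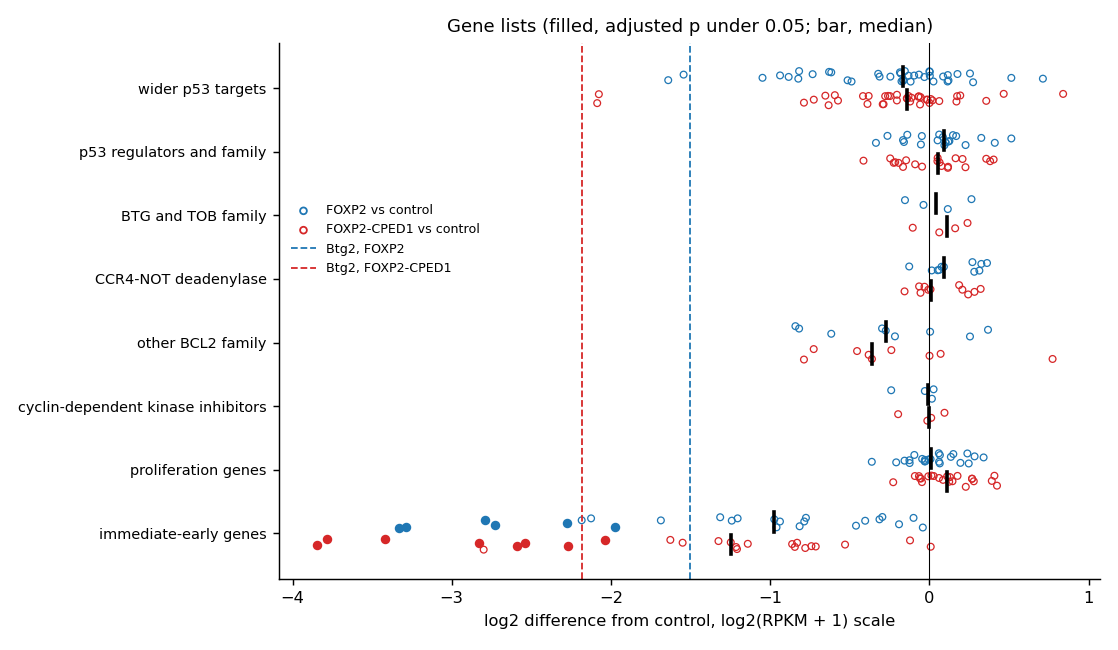
Log2 difference from control (horizontal axis, log2(RPKM + 1) scale) of the tested genes of 8 lists (vertical axis), FOXP2 above and FOXP2-CPED1 below in each; filled points have a limma adjusted p under 0.05, bars are medians and dashed lines the values of Btg2. Filled points are found in the immediate-early list, 6 and 8 of 25, and in no other list.

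The genes whose pattern over the 10 libraries was most like that of Btg2 were named by Pearson r of log2(RPKM + 1) among 8806 protein-coding genes with a mean of at least 2 RPKM. They were Dok1, an adaptor protein (r = 0.945), Ier2, an immediate-early gene (0.943), Egr1, an immediate-early transcription factor (0.933), Cyr61, a secreted matrix protein (0.932), and Rhod, a small GTPase (0.931). Egr1 stood at 174.3 and 179.6 RPKM in the controls, 67.6, 58.4, 75.8 and 28.8 in the FOXP2 clones and 25.8, 40.1, 18.3 and 34.7 in the FOXP2-CPED1 clones. Ier2 stood at 146.3 and 142.6, at 99.1, 84.7, 89.1 and 64.5, and at 41.1, 84.0, 46.1 and 82.4 RPKM. For both, all clones were below the controls, and FOXP2 clone 4 was the lowest of its construct, as for Btg2. Among the FOXP2-CPED1 clones both were highest in clone 2, whereas Btg2 was highest in clone 4. Of the p53 genes the closest were Phlda3 (r = 0.772, rank 115), Cdkn1a (0.769, rank 118) and Mdm2 (0.748, rank 152), followed by Fas (0.553, rank 613). The median r was 0.805 for the 25 immediate-early genes, 0.488 for the 8 other p53 genes and 0.001 over all 8806. Over the 8 clones alone, which removes the gap to the controls, it was 0.454, 0.607 and 0.060 in that order, with r = 0.68 for Cdkn1a and for Mdm2 and -0.05 for Fas. For 37 of the wider p53 targets listed by name, the median r was lower, at 0.203 over the 10 libraries and 0.145 over the 8 clones. These correlations are descriptions over 10 or 8 libraries, in which all genes of a library share its depth and scaling, and they carry no test.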

How the data were processed

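RNA of 10 NIH3T3 cultures was extracted with Trizol and the NEBNext Ultra RNA kit was used for library preparation, per the labels' protocols. The authors deposited 1 table whose name gives its unit as RPKM, that is reads relative to transcript length and library size, and whose header gives each library 1 column. How the scaling was done is not recorded there. HISAT2, StringTie and mm9 are named in the submitters' processing notes. Tool versions, annotation, strand setting and filters are not given in the sources used.

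RPKM was transformed as log2(RPKM + 1), so that differences of low genes are understated. Of 18430 rows, 3581 name no gene and were left out. The other rows that reached 1 RPKM in at least 2 libraries, 12842 in all, were fitted with limma 3.58.1 in R 4.3.3 (3 arms, all 10 libraries, trend on the mean), with two-sided p-values and Benjamini-Hochberg adjustment at 0.05. Controls, FOXP2 clones and FOXP2-CPED1 clones were compared in pairs, and all 8 clones, as the mean of both constructs, with control. The model was tested on simulated data, for FOXP2 against control. Errors of levels are SDs and those of log2 differences standard errors. Each library is 1 culture, so the p-values speak of the spread between cultures only. The comparison of Btg2 with the other targets was planned over 8 targets and uses 7, since Bax is one of 987 rows that join several genes.

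The members and the 8 gene lists were chosen with earlier results of these data known. From each list the genes past the threshold, at most 4 by smallest p, or otherwise the 2 with the smallest p, are named, with the p53 regulators and Btg2 paralogs in any case and the 5 genes most like Btg2. Plk2 is named as well, for its log2 difference. Lists share genes: Ppm1d, Tob1, Bbc3, Bcl2l1 and Pmaip1 are also among the wider p53 targets. Results were recomputed with other pseudocounts (0.1 and 0.25), without a filter or with a mean of at least 5 RPKM, with quantile normalization or median-ratio scaling, without the trend, with quality weights, in fits of only the arms compared, with the clone number as a block, and leaving out the 3 libraries with mitochondrial genes at 0 or each library in turn. Centring each target on its control mean was added after seeing the data.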

Additional observations from a re-analysis of the deposited data

Results flagged for a closer look

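In 3 of the 18 groups of 4 clones examined (9 genes in 2 constructs), 1 clone lay far from the others, by the gap to its nearest neighbour divided by the range of the group (95% critical value 0.829 for 4 samples). Chance alone flags about 1 in 20 groups. Fas in FOXP2-CPED1 clone 2, at 21.6 RPKM against 12.4 to 12.9 in the other 3 clones, had a ratio of 0.944. Mdm2 in FOXP2-CPED1 clone 4, at 84.8 RPKM against 34.8 to 40.5, had a ratio of 0.886. Trp53 in FOXP2 clone 2, at 109.5 RPKM against 61.5 to 66.7, had a ratio of 0.892. The library of FOXP2 clone 2 also has mitochondrial genes listed at 0, and the part of this in its Trp53 value was not tested.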

How the results depend on the processing

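Btg2 was below control under all 20 alternatives for FOXP2 (log2 difference -1.61 to -1.25, limma adjusted p from 0.00773 to 1.0, passing in 1), all 20 for FOXP2-CPED1 (-2.52 to -1.90, adjusted p 0.000657 to 0.658, passing in 2) and all 19 for all clones (-2.003 to -1.63, passing in 2). Fas was below control under the same alternatives, passing in 1 of 20, 1 of 20 and 1 of 19. The gap between Btg2 and the median level of the other targets, which is the level of Mdm2, kept its sign throughout. It ranged over single omitted libraries from -1.14 to -0.90 for FOXP2, -1.86 to -1.58 for FOXP2-CPED1, -1.47 to -1.28 for all clones and -0.82 to -0.53 between the constructs. The gap with each target centred on its control mean was computed with all libraries only.

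With a pseudocount of 0.1, 37 genes were called for FOXP2 and 28 for FOXP2-CPED1, in place of 56 and 45. With only the arms compared 9 were called for FOXP2. With library quality weights 2095, 929, 4 and 1842 were called for FOXP2, FOXP2-CPED1, between the constructs and for all clones (1013, 343 and 816 higher in the comparisons with control), and small differences changed sign: Trp53 for FOXP2 (-0.037), Zmat3 (-0.085) and Trp53inp1 (0.11) for FOXP2-CPED1, Ccng1 (-0.20) and Zmat3 (-0.13) between the constructs, and Trp53 (-0.0060) and Zmat3 (-0.021) for all clones. The cause was not tested. Mdm2 changed sign between the constructs with quantile normalization (0.0024) and median-ratio scaling (0.012). Without the 3 libraries with mitochondrial genes at 0, 23 genes were called for FOXP2, and 1 of the 9 members separated the constructs. The share of all tested rows that did so was not computed for this setting, and was 1.38% with all libraries. In the same setting Trp53 for FOXP2 (-0.10), Ccng1 for FOXP2-CPED1 (0.17) and Mdm2, Cdkn1a and Phlda3 between the constructs (0.20, 0.13 and 0.15) changed sign.

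Leaving out 1 library at a time, 2 to 64 genes were called for FOXP2, 0 to 57 for FOXP2-CPED1, 0 to 1 between the constructs and 2 to 82 for all clones. The lowest counts came without the parent (2, 0 and 2 in the comparisons with control) or the vector culture (3, 2 and 3), which leaves 1 control library that is assumed to vary like the clones. Members separated without overlap numbered 5 to 7, 2 to 6, 0 to 2 and 2 to 5 in the same order. The 6, the 2 between the constructs and the 5 came without FOXP2-CPED1 clone 4. With all libraries, 19.5%, 25.6%, 1.38% and 11.8% of tested rows were separated in either direction, in that order. Without that clone, 20.4% of rows were lower and 19.6% higher for FOXP2-CPED1, and 7.43% and 6.18% for all clones. No share over all rows was computed for the other comparisons and omissions. The members whose small differences changed sign were Trp53 (-0.10 to 0.17), Zmat3 (-0.034 to 0.18) and Trp53inp1 (-0.20 to 0.63) for FOXP2, Ccng1 (-0.30 to 0.17), Zmat3 (-0.061 to 0.28) and Trp53inp1 (-0.12 to 0.13) for FOXP2-CPED1, and Zmat3 (-0.024 to 0.19) and Trp53inp1 (-0.12 to 0.30) for all clones. Between the constructs they were Trp53 (-0.073 to 0.21), Mdm2 (-0.28 to 0.14), Cdkn1a (-0.28 to 0.10), Ccng1 (-0.13 to 0.34), Phlda3 (-0.18 to 0.089), Zmat3 (-0.14 to 0.20), Fas (-0.39 to 0.21) and Trp53inp1 (-0.66 to 0.18).

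Clone numbers do not pair the constructs: same-numbered clones correlated at -0.036, -0.24, 0.28 and 0.17, and not every clone correlated best with its own number. With the number as a replicate block 0 genes and 0 members were called between the constructs, as without it, and Btg2 stood at -0.68. The absolute depth is unknown, which limits what can be said of genes near 1 RPKM such as Trp63.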
